A study of Sus scrofa with 24 samples.

Results

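Microglia are the resident immune cells of the brain, and 9 genes by which they are commonly recognised were followed through the piglet hippocampus: CX3CR1, P2RY12, AIF1, CSF1R, TMEM119, TREM2, TYROBP, ITGAM and CD68. They were chosen by symbol from the 38882 genes listed for each library, and each symbol matched 1 gene. RNA came from the hippocampi of 24 piglets killed at 14 days of age, with 6 in each group: SGA HF, SGA CON, AGA HF and AGA CON. AGA stands for appropriate for gestational age and SGA for small for gestational age, and both were defined by weight at birth. CON was a control formula in which the fat was mainly triglyceride oil. In the hydrolyzed fat (HF) formula part of this oil was replaced by free fatty acids, monoacylglycerol palmitate and soy lecithin. The HF formula also held cholesterol, which CON did not, and more choline. All piglets were full-term, naturally delivered offspring of PIC Camborough dams and PIC 359 sires, were left intact, received iron and gentamicin on the farm, and were fed formula from early in life. Every SGA piglet had a sex-matched AGA littermate, and both were fed the same formula, which gave 12 litters, 6 on each diet. The litters were brought in as 2 cohorts of 6, with 3 CON and 3 HF litters in each, so that size was compared within litters and diet between litters.

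Microglia settle in the brain before birth and maintain themselves there by division. Their survival depends on CSF1R, the receptor for the growth factors CSF1 and IL34. CX3CR1 receives the neuronal chemokine CX3CL1, P2RY12 senses nucleotides released by damaged cells and guides the fine processes, and TMEM119 is a surface protein that separates microglia from most other macrophages. AIF1, also called IBA1, is an actin-binding protein of macrophages. TREM2 binds lipids and apolipoproteins and signals through the adaptor TYROBP, also called DAP12. ITGAM is the alpha chain of complement receptor CR3, and CD68 is a lysosomal glycoprotein of phagocytes. Apart from TMEM119 and P2RY12, these genes are shared to different degrees with macrophages at the brain borders and with blood monocytes. In bulk tissue a lower level can mean fewer cells of a type or less RNA per cell, and these cannot be told apart.

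The library totals on listed genes ranged from 6017336 to 9284355 reads. At these totals 3 counts correspond to between 0.323 and 0.499 counts per 1000000 reads (CPM), and such floors cover counting error only. All 9 genes were among the 16326 genes that reached 1 CPM in 3 or more libraries, but not equally securely. CX3CR1, P2RY12, AIF1, TMEM119, TYROBP and ITGAM reached 1 CPM in 24 of 24 libraries, CSF1R in 23, CD68 in 21 and TREM2 in 4. TREM2 had between 0 and 12 counts per library, 99 in all, and was at 0 in 1 library, so a difference in TREM2 was hardly detectable at this depth. Reads in which AIF1 and its neighbour LST1 overlap on the same strand cannot be assigned to either, over 18 bases. P2RY12 shares 5 bases with MED12L on the opposite strand.

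The genes lie on separate parts of the Sscrofa10.2 genome, which the deposited files use, with TREM2 and AIF1 on the same chromosome and CX3CR1 and P2RY12 on another. Each position spans the annotated exons and the introns between them, and only reads on exons were counted. CX3CR1 (Entrez gene 100622126) is at chr13:26204842-26218014 on the minus strand with 2 exons, and P2RY12 (503659) is at chr13:99604550-99654172 on the minus strand with 4. AIF1 (397271) is at chr7:27520797-27540237 and TREM2 (100737974) at chr7:41763412-41767191, both on the minus strand, with 8 and 3 exons. CSF1R (100517086) is at chr2:157855536-157882913 on the minus strand and has the most exons of the 9 genes, 23. TMEM119 (100621401), at chr14:44736255-44742678, is the only one of the 9 on the plus strand and has 2 exons. TYROBP (397405) is at chr6:40711873-40716395 with 6 exons, ITGAM (397459) at chr3:17651478-17668230 with 18 and CD68 (103158530) at chr12:55296987-55299491 with 6, all on the minus strand.

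Levels of different genes were compared per length, as transcripts per 1000000 transcripts (TPM), which divides counts by exon length. Exon lengths ran from 572 bases in TREM2 to 3968 bases in CSF1R. The paper ascribed the average RNA quality number of these samples to pre-spliced RNA. Whether RNA quality acted on levels of genes of unlike length was not tested. The adaptor TYROBP and the actin-binding AIF1 were the most abundant, at 50.0 ± 15.97 and 50.1 ± 11.9 TPM (mean ± SD, n = 24), and did not differ beyond their spread. CX3CR1 followed at 23.8 ± 9.10 TPM and P2RY12 at 18.4 ± 7.68 TPM, again within the spread of each other. The next tier held ITGAM at 5.15 ± 2.01, TMEM119 at 4.75 ± 2.26, CSF1R at 4.20 ± 3.38 and CD68 at 3.81 ± 2.67 TPM, and no neighbours in this order were farther apart than their SDs. TREM2 was lowest at 1.78 ± 1.37 TPM, within 1 SD of CD68. Among all genes tested, AIF1 stood at the 79.3rd percentile of mean TPM, CX3CR1 at the 66.3rd, CSF1R at the 32.6th and TREM2 at the 17.6th.

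The label of the genes was checked against markers of other cells that the dissection could hold. The summed level of the 9 genes was between 68.0 and 225 CPM per library, with a median of 119 CPM. The 8 markers of border macrophages (MRC1, CD163, LYVE1, F13A1, MS4A7, SIGLEC1, STAB1 and CD209) summed to between 29.6 and 70.6 CPM, and 1 of these 8 genes was at 0 in over 12 of the 24 libraries. The 9 markers of blood myeloid cells summed to between 8.82 and 86.5 CPM, with 2 genes at 0 in over 12 libraries. Lymphocyte markers summed to between 8.59 and 23.4 CPM. Neuronal markers summed to between 4912 and 11961 CPM. None of these lists had a gene called for size, diet or their interaction. The oligodendrocyte genes lay below 0 for size in 8 of 8 cases (SGA minus AGA), with a median log2 fold change of -0.21, and the part of this in the results was not tested. Microglial genes were thus detected in every library at a low level beside neuronal RNA, and the macrophage and blood markers were lower but not absent.

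A pair of libraries was treated as standing apart. AGA CON replicate 2 had the highest summed level of the 9 genes, 225 CPM, together with the lowest neuronal sum, 4912 CPM, and the highest lymphocyte sum, 23.4 CPM. SGA CON replicate 3 had the blood myeloid sum of 86.5 CPM, where no other library exceeded 23.4 CPM, and the highest border macrophage sum, 70.6 CPM. The part of these markers in the results was not tested. For the 9 genes, results named below that rest on either library are given with and without it, an alternative chosen after the data were seen. The other gene lists were not refitted in this way. AGA HF replicate 4 had the next-highest summed level of the 9 genes, 177 CPM, and the next-lowest neuronal sum, 6168 CPM. Its lymphocyte sum was 14.1 CPM. That library was left out only together with its littermate, as litter 7.

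**Figure D1:**
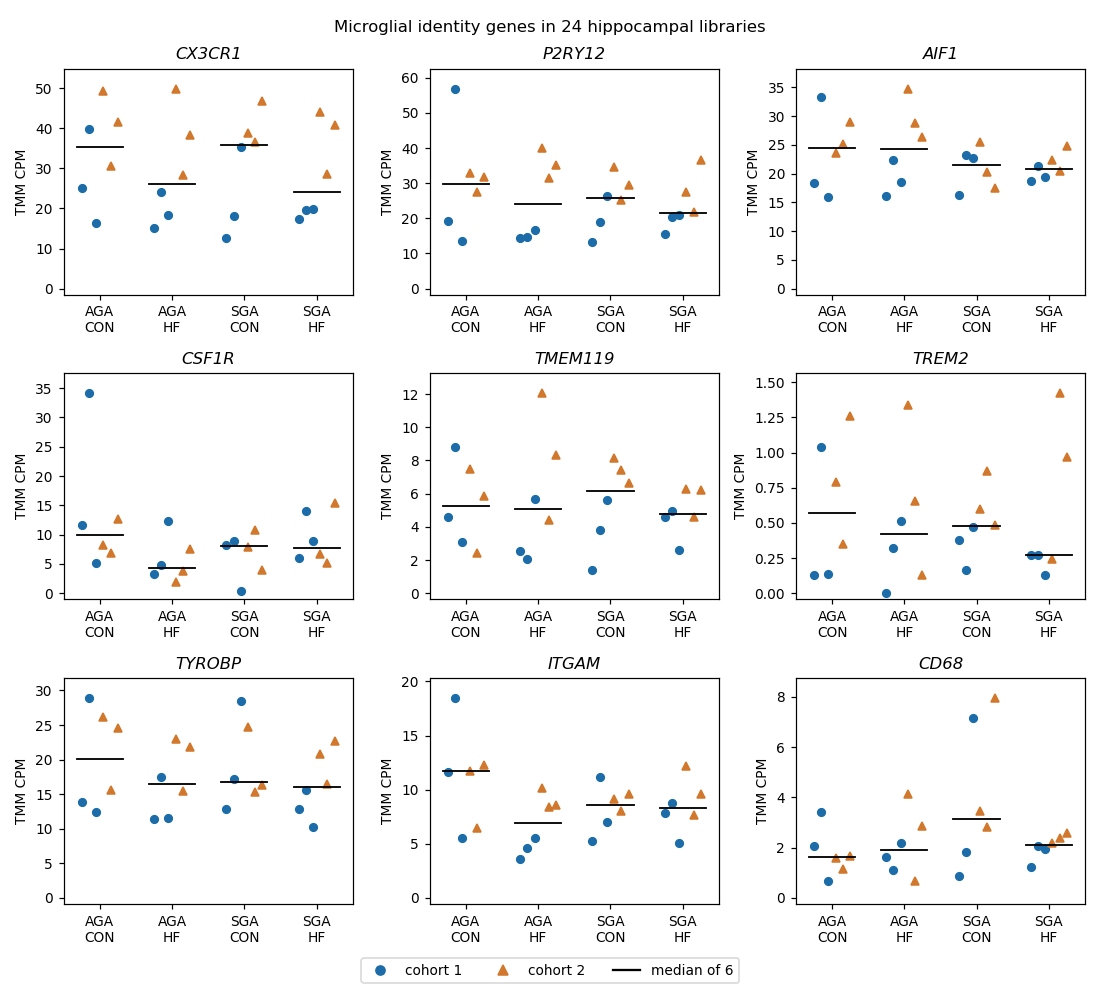
Level of each of the 9 genes in TMM-normalized CPM (y axis, linear, each panel with its own scale) in the 4 groups (x axis). Each point is 1 piglet, circles are cohort 1 and triangles cohort 2, and the bar is the median of 6. All CX3CR1 triangles lie above all circles in 3 of the 4 groups, AGA CON being the exception, whereas the groups themselves overlap for all 9 genes.

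No member was differentially expressed by size. Size was compared in edgeR's quasi-likelihood model with the 4 groups, sex and 5 surrogate variables, and genes were called at an FDR p under 0.4, a threshold that admits about 40% false calls. None of the 9 genes was called, against 78 of 16326 genes tested, or 0.478%. At an unadjusted p under 0.05 the count was also 0 of 9, against 10.6% of all genes. When the surrogate variables and sex gave way to a litter block, again none was called for size, against 2.57% of all genes.

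For 7 of the 9 genes the size estimate in the model with surrogate variables lay within 0.08 of 0 on the log2 scale. CX3CR1 ranged in AGA CON from 16.3 to 49.4 CPM with a median of 35.3, and in SGA CON from 12.5 to 46.7 CPM with a median of 35.9. On the HF diet CX3CR1 ranged from 15.1 to 49.9 CPM with a median of 26.2 in AGA piglets, and from 17.4 to 44.0 CPM with a median of 24.2 in SGA piglets. The groups overlapped almost entirely, and the size difference was -0.04 ± 0.14 (log2 fold change ± SE, SGA minus AGA, edgeR FDR-adjusted p = 0.981). P2RY12 differed by 0.07 ± 0.12, AIF1 by -0.03 ± 0.08, TYROBP by -0.01 ± 0.10, ITGAM by 0.02 ± 0.15, TMEM119 by -0.01 ± 0.20 and CSF1R by 0.01 ± 0.35 on the same log2 scale. The SEs show how unequal the precision was within this model, narrow for AIF1 and wide for CSF1R. The estimate for AIF1 depended on the model. It was -0.19 ± 0.10 with litter as a block (edgeR FDR-adjusted p = 0.665), and -0.20 when cohort and sex replaced the surrogate variables. The value of CSF1R is the mean of -0.56 ± 0.48 on CON and 0.59 ± 0.49 on HF.

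The largest size differences were those of TREM2 and CD68, the least abundant members. TREM2 was at 0.83 ± 0.45 (log2 fold change ± SE, edgeR unadjusted p = 0.077, FDR-adjusted p = 0.771), but was 0.01 ± 0.39 with litter as a block and -0.07 when cohort and sex replaced the surrogate variables. On CON the TREM2 medians were 0.571 CPM in AGA and 0.478 CPM in SGA piglets, on HF 0.419 and 0.272 CPM, most of them near the level of 3 counts. CD68 was at 0.45 ± 0.27 (edgeR unadjusted p = 0.109, FDR-adjusted p = 0.801), and is taken up again with the diets below.

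Littermates were compared directly as well. The mean SGA minus AGA difference over 12 litters was between -0.18 for AIF1 and 0.50 for CD68 in log2 CPM, and no exact two-sided sign-flip test over the litters gave an adjusted p under 0.532 among the 9 genes. AIF1 had the smallest exact p, 0.122, with the SGA littermate higher in 4 of 12 litters. CX3CR1 was higher in the SGA littermate in 7 of 12 litters, with a mean difference of -0.09 and an SD over litters of 0.585. The differences of single litters were wide, up to 2.95 for CD68 and down to -2.90 for CSF1R, so that the near-zero means did not come from near-zero differences.

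**Figure D2:**
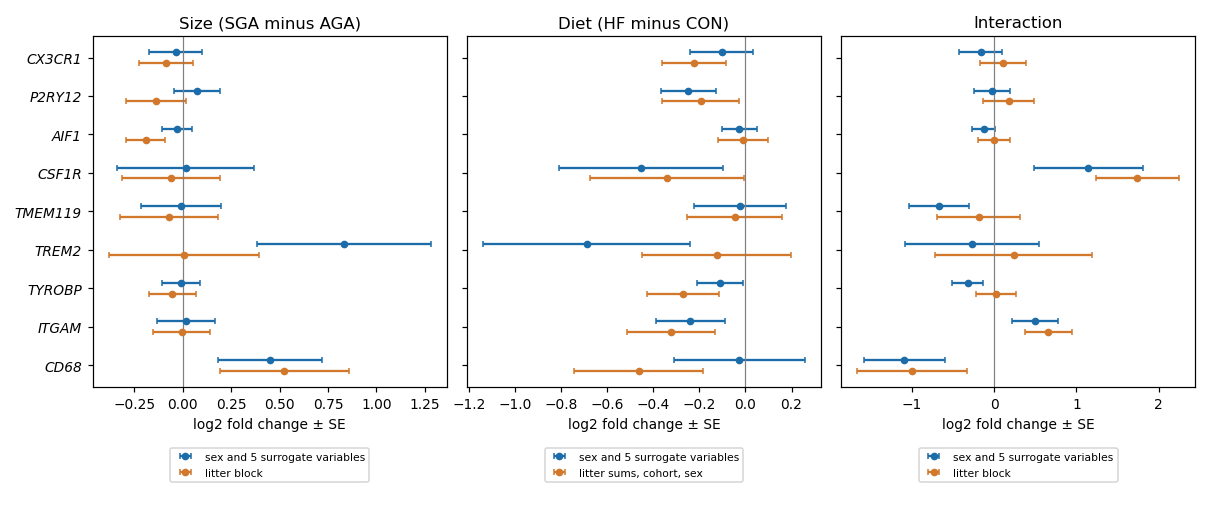
Log2 fold change ± SE (x axis) of the 9 genes for size, diet and their interaction, in the model with sex and 5 surrogate variables (blue) and by litter (orange: a litter block for size and interaction, litter sums with cohort and sex for diet). Estimates for size in the model with surrogate variables lie close to 0 for 7 genes, of which AIF1 is at -0.19 with the litter block. TREM2 is at 0.83 in one model and 0.01 in the other, and the interaction of CSF1R, 1.14 and 1.74, is farthest to the right.

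Diet left the 9 genes uncalled. None passed the FDR p of 0.4, against 26 genes or 0.159% of all tested, and none had an unadjusted p under 0.05, against 7.1% of all genes. The point estimates (HF minus CON) lay below 0 for 9 of 9 genes, with a median of -0.11 where the median of all genes was 0.00202, but 4 of the 9 were within 1 SE of 0. P2RY12 had the smallest p, with -0.25 ± 0.12 (log2 fold change ± SE, edgeR unadjusted p = 0.051, FDR-adjusted p = 0.736). Without AGA CON replicate 2, which had the highest P2RY12 level of all libraries, 56.9 CPM, it was -0.09 ± 0.10. Without litter 4 it was -0.081 and without litter 7 -0.037. AIF1 was at 0.01 when cohort and sex replaced the surrogate variables and at 0.03 without AGA CON replicate 2, which took it to the other side of 0.

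By litter, which is the unit the diet was given to, the diet difference in log2 CPM was between -0.32 for ITGAM and 0.02 for AIF1, and the exact permutation test within cohorts gave p-values between 0.2 and 0.935. The smallest p this design can reach is 0.005. For several genes the difference came from cohort 1. ITGAM litters on HF were lower than CON litters by -0.63 in cohort 1 and by -0.01 in cohort 2, TYROBP by -0.44 and -0.01, and P2RY12 by -0.34 in cohort 1 with 0.06 in cohort 2. Whether these differ between cohorts was not tested, and cohort 1 holds AGA CON replicate 2.

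ITGAM had the smallest unadjusted p of the 9 genes for diet in AGA piglets. It ranged from 5.56 to 18.5 CPM in AGA CON with a median of 11.7, and from 3.60 to 10.17 CPM in AGA HF with a median of 6.97. In SGA piglets the medians were 8.62 CPM on CON and 8.31 CPM on HF. The groups overlapped in both sizes of piglet. In AGA piglets the difference was -0.49 ± 0.21 (log2 fold change ± SE, edgeR unadjusted p = 0.029, FDR-adjusted p = 0.681). Without AGA CON replicate 2, which had the highest ITGAM level, 18.5 CPM, it was -0.52 ± 0.20. The diet difference was not shown to depend on size: the interaction of ITGAM was 0.50 ± 0.28 (edgeR FDR-adjusted p = 0.780), and 0.39 ± 0.29 without SGA CON replicate 3. In the pairwise comparisons none of the 9 genes was called for size on CON (0.129% of all genes called), size on HF (0.288%), diet in AGA (0.0674%) or diet in SGA (0.0919%).

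CSF1R had the largest point estimate of the interaction among the 9 genes, and whether it was called depended on the model. CSF1R varied more than any other member detected in all libraries, with a highest level 72.9 times the lowest and a coefficient of variation of 76.2%. In AGA CON the 6 piglets had 11.7, 34.1, 5.15, 8.17, 6.89 and 12.7 CPM, and in SGA CON 8.15, 8.91, 0.468, 7.83, 10.8 and 3.90 CPM, in litter order. In AGA HF they had 3.30, 4.81, 12.4, 1.87, 3.78 and 7.53 CPM, and in SGA HF 6.06, 14.0, 8.85, 6.75, 5.21 and 15.5 CPM. On CON the SGA piglet was the higher littermate in 1 of 6 litters, with a mean log2 difference of -1.07, and on HF in 5 of 6 litters, with a mean of 0.82.

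In the model with surrogate variables the interaction of CSF1R, the size difference on HF less that on CON, was 1.14 ± 0.66 (log2 fold change ± SE, edgeR unadjusted p = 0.099, FDR-adjusted p = 0.792) and was not called. None of the 9 genes was, against 8 genes or 0.049% of all tested. With litter as a block the interaction of CSF1R was 1.74 ± 0.51 (edgeR FDR-adjusted p = 0.341) and passed 0.4, where 0.276% of all genes did. It was the 1 member called in that fit. The exact test that exchanged diets among litters gave a difference of 1.89 with p = 0.015 and an adjusted p of 0.992, and 3.63% of all genes had an exact p under 0.05. The difference had the same sign in both cohorts, 2.39 in cohort 1 and 1.38 in cohort 2.

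The call of CSF1R was not secure. When each litter was left out in turn, the blocked interaction stayed between 1.496 and 2.10 but its FDR p ranged from 0.201 to 0.571 and was above 0.4 without any one of litters 1, 3, 4, 7, 9, 11 and 12. The extreme values were those of the libraries that stood apart: AGA CON replicate 2 had 229 counts of CSF1R and SGA CON replicate 3 had 4. Without AGA CON replicate 2 the interaction in the model with surrogate variables was 0.91, and without SGA CON replicate 3 it was 0.67. Its ligands had interactions of 0.32 ± 0.48 for CSF1 and 0.04 ± 0.14 for IL34 (log2 fold change ± SE), of which the first was too imprecise to set beside that of CSF1R. All 6 ligands tested lay above 0, with a median of 0.14.

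**Figure D3:**
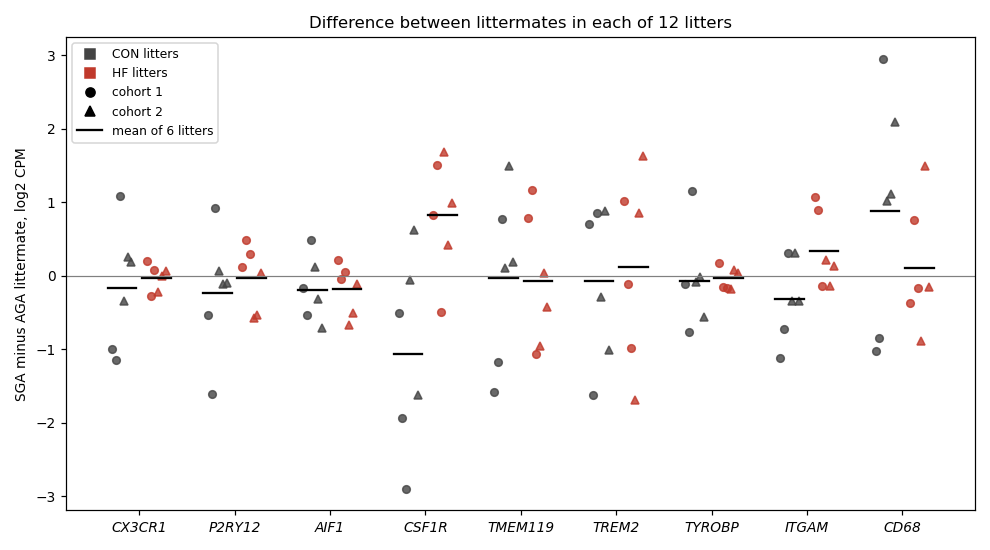
SGA minus AGA difference in log2 CPM (y axis) in each of 12 litters for the 9 genes (x axis), grey for CON and red for HF litters, circles for cohort 1 and triangles for cohort 2, with the mean of 6 litters as a bar. The bars of CSF1R lie at -1.07 on CON and 0.82 on HF, those of CD68 at 0.88 and 0.11, and the bars of the other 7 genes lie between -0.32 and 0.34.

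CD68, the lysosomal gene, had an interaction estimate of the opposite sign, which was not called. In AGA CON it ranged from 0.678 to 3.43 CPM with a median of 1.63, and in SGA CON from 0.878 to 7.95 CPM with a median of 3.15. On HF the medians were 1.92 CPM in AGA and 2.12 CPM in SGA piglets. The higher SGA CON levels came from replicates 3 and 6, at 7.14 and 7.95 CPM or 61 and 49 counts, while the other SGA CON piglets reached at most 3.46 CPM. The size difference on CON was 0.99 ± 0.36 (log2 fold change ± SE, edgeR unadjusted p = 0.012, FDR-adjusted p = 0.601), and the interaction was -1.09 ± 0.49 (edgeR unadjusted p = 0.039, FDR-adjusted p = 0.713).

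CD68 was the 1 member with an unadjusted p under 0.05 for the interaction, where 4.01% of all genes had one. SGA CON replicate 3 is the library with the blood myeloid sum of 86.5 CPM, whereas SGA CON replicate 6 had 19.2 CPM, within the range of the rest. Without SGA CON replicate 3 the size difference of CD68 on CON was 0.68 ± 0.36 and its interaction -0.71 ± 0.48. In the exact test by litter the interaction was -0.77 with p = 0.345. The SGA littermate had more CD68 in 4 of 6 CON and 2 of 6 HF litters.

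TMEM119 had an interaction of -0.67 ± 0.37 (edgeR FDR-adjusted p = 0.775). TMEM119 ranged from 1.38 to 12.0 CPM over all libraries, and its 4 group medians were between 4.79 and 6.14 CPM. With litter as a block TMEM119 was at -0.19 ± 0.50 and ITGAM at 0.66 ± 0.29, neither called. The remaining members had interactions between -0.32 for TYROBP and -0.02 for P2RY12 in the model with surrogate variables, whose signs were not kept in the litter-blocked fit.

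CX3CR1 was higher in the litters of cohort 2, a comparison added after the values were seen. Each group held 3 piglets of each cohort, but cohort 2 held more female litters than cohort 1. Over both cohorts CX3CR1 averaged 34.6 CPM in females and 26.7 CPM in males (n = 12 each). The levels and litter means in this paragraph are not adjusted for sex. CX3CR1 averaged 21.8 ± 8.20 CPM in cohort 1 and 39.5 ± 7.50 CPM in cohort 2 (mean ± SD, n = 12 each). In cohort 1 it ran from 12.5 to 39.9 CPM with a median of 19.0, and in cohort 2 from 28.3 to 49.9 CPM with a median of 39.9, so that single piglets of the cohorts overlapped. The litter means did not overlap: the highest of cohort 1 was 4.77 and the lowest of cohort 2 was 4.84 in log2 CPM, a separation in this direction that 0.625% of all genes showed.

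Counts were added over littermates and the 12 litters were fitted with diet, cohort and sex. CX3CR1 was higher in cohort 2 by 0.81 ± 0.14 (log2 fold change ± SE, edgeR adjusted p = 0.025), and passed an adjusted p of 0.05, a stricter threshold chosen after the values were seen, where 0.172% of all genes were higher in cohort 2. Leaving out each litter in turn kept the difference between 0.58 and 0.92, but the adjusted p ranged from 0.016 to 0.120 and was above 0.05 without litter 3, 5, 11 or 12.

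At the FDR p of 0.4 used for size and diet, CX3CR1, TMEM119 and P2RY12 of the 9 genes were called as higher in cohort 2, where 4.09% of all genes were. TREM2 also passed, but it reached 1 CPM in only 4 libraries, of which AGA CON replicate 2 alone was in cohort 1. It thus met the filter only through cohort 2, and its difference is not counted as a call. TREM2 was at 1.098 ± 0.35, TMEM119 at 0.62 ± 0.21 and P2RY12 at 0.47 ± 0.17 (log2 fold change ± SE, cohort 2 minus cohort 1, edgeR adjusted p between 0.227 and 0.297). CSF1R was the only member with an estimate below 0, -0.53 ± 0.34, while its litter means in log2 CPM differed by -0.09. The median over the 9 genes, with TREM2 included, was 0.31 where that of all genes was -0.01. Of the 29 other microglial and macrophage genes tested, 17 were higher in cohort 2 and 12 lower, with a median of 0.15. None of them passed an adjusted p of 0.05. At 0.4, SELPLG, ITGB2, C1QA and TLR2 passed as higher, by 0.48 to 0.78. CTSS at -0.68 ± 0.21 and MERTK at -0.45 ± 0.13 passed as lower. The oligodendrocyte sum was also higher in cohort 2, with a median of 22232 CPM against 17905 CPM, and the neuronal median was 9636 against 9168 CPM. Single markers moved as well, named after their values were seen. The oligodendrocyte lineage gene OLIG2 was higher in cohort 2 by 0.41 ± 0.08 (log2 fold change ± SE, edgeR adjusted p = 0.043). The monocyte gene CD14 was at 0.81 ± 0.17 (edgeR adjusted p = 0.055). The T cell genes CD3E and CD2 were at -3.41 ± 0.62 and -1.29 ± 0.27, but averaged only 0.665 and 1.00 CPM over 24 libraries. At such levels they can have met the filter of 1 CPM only through cohort 1, so their differences are not counted as calls. The part of these markers in the cohort difference of CX3CR1 was not tested, nor was any step of collection or sequencing, which the labels do not tie to cohort.

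**Figure D4:**
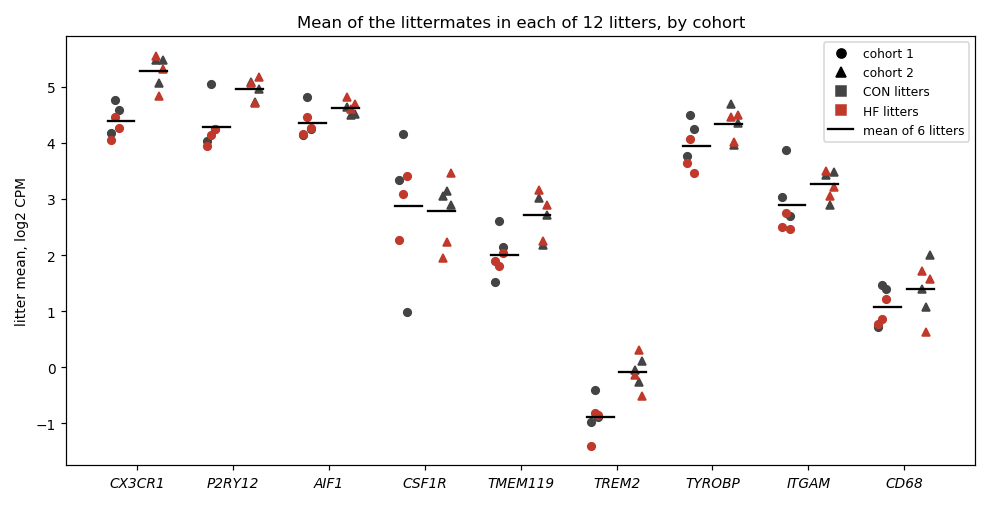
Mean of the littermates in log2 CPM (y axis) for each of 12 litters and the 9 genes (x axis), circles for cohort 1, triangles for cohort 2, grey for CON and red for HF litters, with the mean of 6 litters as a bar. Among the 9 genes only the CX3CR1 litters separate, at 4.77 or below in cohort 1 and 4.84 or above in cohort 2, and CSF1R has cohort bars at nearly the same height.

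The members moved together from library to library, with CSF1R as the exception. Over 24 libraries the 36 pairs of members had a median Pearson r of 0.587 in log2 CPM, from -0.22 to 0.87, and 33 were positive. These correlations are descriptive, since the points share depth and tissue composition, and with cohort means removed the median was 0.457. CX3CR1 and P2RY12 had the highest r, 0.87. The r of each member with the mean of the other 8 was 0.92 for P2RY12, 0.85 for CX3CR1, 0.81 for TMEM119, 0.80 for TYROBP, 0.79 for ITGAM, 0.73 for AIF1, 0.62 for TREM2 and 0.46 for CD68. For CSF1R it was 0.08.

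**Figure D5:**
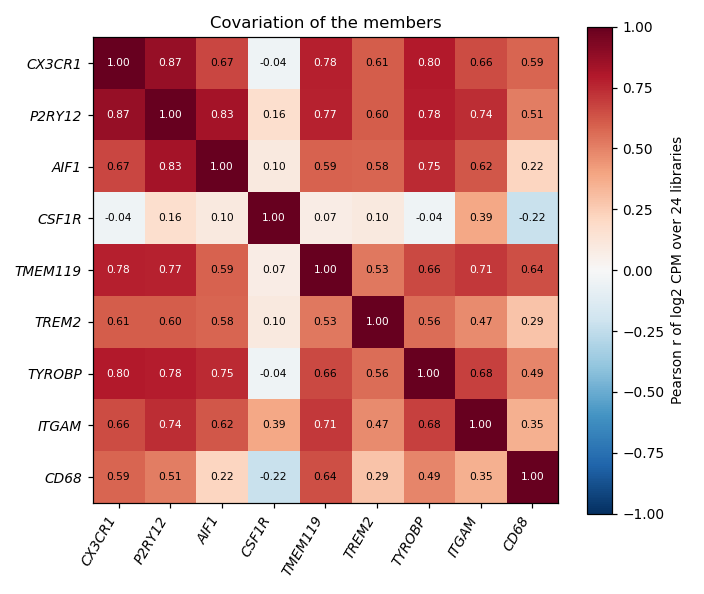
Pearson r between the log2 CPM of each pair of the 9 genes over 24 libraries, red for positive and blue for negative values. The row of CSF1R is pale, between -0.22 with CD68 and 0.39 with ITGAM, while CX3CR1 with P2RY12 is darkest at 0.87.

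The genes whose pattern was most like the mean of the 9, of 12353 genes with a symbol, were LAPTM5 (r = 0.92), GIMAP4 (0.90), ITGB2 (0.89), SELPLG (0.88), RGS10 (0.87), PTGDR2 (0.87), C5AR1 (0.86), CD53 (0.86), HCLS1 (0.86) and INPP5D (0.85). LAPTM5 is a lysosomal protein, ITGB2 is the integrin beta chain that pairs with ITGAM, C5AR1 is the receptor for the complement fragment C5a, and INPP5D is the phosphatase SHIP1. Of these 10 genes 5 were in the list of other microglial and macrophage genes. The mean of the 9 genes had an r of 0.88 with the sum of that list and of 0.81 with that of the TREM2 and TYROBP signalling genes, of 0.59 with the lymphocyte sum, of 0.53 with the blood myeloid sum, of 0.47 with the astrocyte sum, of 0.26 with the border macrophage sum and of -0.48 with the neuronal sum.

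The 5 surrogate variables of the model fitted 87.7% of the variance of this mean and 88.4% of that of cohort, while cohort alone fitted 33.9% of the variance of the mean. A model with them therefore compares the groups after removing most of what the 9 genes have in common. For single members the share was between 9.15 and 82.1%. The littermate comparisons above, which use no surrogate variables, gave no call for size either. By litter no member was called for diet, but those comparisons could not decide the matter. In the exact test of diet no gene at all had an adjusted p under 0.997, and in the edgeR fit of litter sums the members were at an adjusted p of 0.999.

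The wider microglial program gave no call for size, diet or their interaction in any of the lists examined. Of 33 other microglial and macrophage genes 29 were tested. For size 20 of the 29 were above 0 with a median log2 fold change of 0.07, where the median of all genes was -0.00225. LAPTM5 was at 0.19 ± 0.09 (edgeR FDR-adjusted p = 0.714), SPI1, the transcription factor PU.1, at 0.15 ± 0.07 (FDR-adjusted p = 0.714) and CYBB, a subunit of the phagocyte oxidase, at 0.52 ± 0.30. For diet 22 of 29 were below 0 with a median of -0.08, and PTPRC, the common leukocyte antigen CD45, was at -0.35 ± 0.16 (edgeR FDR-adjusted p = 0.719). In SGA piglets 28 of 29 lay below 0 for diet with a median of -0.19, and in AGA piglets 16 of 29 with a median of -0.02, where the medians of all genes were 0.00145 and 0.00271, and no gene of the list was called for the interaction. For diet over both sizes SLC2A5, the fructose transporter of microglia, was at 0.32 ± 0.16 and GPR34, a lysophosphatidylserine receptor, at -0.21 ± 0.13. SLC2A5 was at 0.64 ± 0.22 for diet in AGA and -0.005 ± 0.22 in SGA piglets, and GPR34 at -0.03 ± 0.18 and -0.39 ± 0.18. For the interaction 24 of 29 were below 0, with a median of -0.23. These counts were not refitted without the libraries that stood apart. SGA CON replicate 3 had a sum of 1024 CPM for this list, against at most 883 CPM in the rest of its group. AGA CON replicate 2 had 1189 CPM, against at most 828 CPM. On the other diet, AGA HF replicate 4 had 1088 CPM, against at most 807 CPM in the rest of its group. The genes were measured in the same libraries and are not separate observations.

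Among the ligands of the members' receptors, 6 of 7 were tested. The fractalkine gene CX3CL1 was at 0.12 ± 0.05 for size (log2 fold change ± SE, edgeR FDR-adjusted p = 0.660) and at -0.07 ± 0.05 for diet. CSF1 was at 0.39 ± 0.26 and IL34 at -0.09 ± 0.07 for size. TGFB1, a cytokine on which the microglial program depends, was at -0.14 ± 0.05 for diet (edgeR FDR-adjusted p = 0.631), and the apolipoprotein CLU, which TREM2 binds, at -0.05 ± 0.06. None was called, and the precision for the abundant CX3CL1 and CLU was far better than for CSF1.

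Of 13 genes that signal below TREM2 and TYROBP 10 were tested, of which 8 were above 0 for size with a median of 0.14 and 9 below 0 for diet with a median of -0.07. The guanine exchange factor VAV1 was at 0.32 ± 0.15, the Src-family kinase LYN at 0.16 ± 0.08 and the PI3-kinase subunit PIK3CD at 0.21 ± 0.14 for size. The small GTPase RAC2 was at -0.23 ± 0.08 (edgeR FDR-adjusted p = 0.581), the phosphatase PTPN6 at -0.18 ± 0.10 and the phospholipase PLCG2 at -0.67 ± 0.49 for diet. Of 23 genes of phagocytic and activated microglia 13 were tested, with medians of -0.02 for size and 0.01 for diet. The tetraspanin CD9 was at -0.30 ± 0.12 (edgeR FDR-adjusted p = 0.642), the lectin LGALS3 at 0.34 ± 0.15 (FDR-adjusted p = 0.684) and the monocyte chemokine CCL2 at 0.64 ± 0.32 for size. For diet CCL2 was at -0.82 ± 0.30 (edgeR FDR-adjusted p = 0.615), the protease CTSB at 0.05 ± 0.04 and LGALS3 at -0.16 ± 0.15. CD9 is also made by oligodendrocytes and was called as higher in cohort 2, by 0.54 ± 0.09 (edgeR adjusted p = 0.019), a gene and comparison named after the values were seen.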

How the data were processed

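Hippocampal polyA RNA of 24 piglets was sequenced. Per the labels and the study's methods, the authors trimmed reads with Trimmomatic 0.33, aligned them to Sscrofa10.2 with STAR 2.5.2a and counted reads on the exons of Entrez genes with featureCounts (Subread 1.5.0), by strand, and deposited unfiltered whole-number counts. An entry without an identifier (0.613 to 1.62% of reads) was left out. A name table (Sscrofa11.1) supplied symbols for 23036 of 38882 genes by Entrez identifier. Each sequence took the chromosome number that most of its genes carry in that table. No sequences are shown.

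Counts were normalized by TMM and fitted in R 4.3.3 with edgeR 4.0.16 (glmQLFit and glmQLFTest, sva 3.50.0 for surrogate variables) as described in the report, with the FDR over 7 contrasts together. Exact tests used log2 CPM with a prior count of 2 and Benjamini-Hochberg adjustment over 16326 genes: 4096 sign flips over 12 litters, or 400 exchanges of diet within cohorts. The procedure was tested on simulated data. Alternatives were the litter block, litter sums, cohort and sex, RLE size factors, no filter, DESeq2 1.42.0, limma 3.58.1 voom, separate adjustment, each cohort alone, left-out litters or libraries, a prior count of 0.5 and plain library totals. Same-numbered AGA and SGA piglets on one diet are littermates by the labels. Their deviations from the group means correlated by 0.01 to 0.33 over all genes (median 0.13, above 0.1 in 9 of 12 pairs). The members and lists were chosen with earlier results of these data known. From the other lists, the genes with the smallest unadjusted p for size or diet were named, up to 3 per list, and the ligands, CD9 in cohort and the 10 genes most like the members were named besides.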

Additional observations from a re-analysis of the deposited data

Results flagged for a closer look

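CSF1R in AGA CON replicate 2, at 34.1 CPM, lay far above the other 5 piglets of its group, which had between 5.15 and 12.7 CPM. Of the 36 sets of 6 piglets examined, 1 for each gene and group, it was the 1 with such a value, and chance alone flags about 5% of such sets. The same library had the highest summed level of the 9 genes and the lowest neuronal sum.

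The size difference of CSF1R on HF less that on CON, 1.74 in log2 with litter as a block, passed the FDR p of 0.4 and so differed between the diets by that test (edgeR FDR-adjusted p = 0.341). It did not pass in the model with surrogate variables.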

How the results depend on the processing

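The count of members called stayed at 0 for the contrasts fitted under each alternative, with 1 exception. With litter as a replicate block 1 member, CSF1R, was called for the interaction, and the block changed no other call. None of the differences in the next 2 paragraphs was called, and the cause of a changed sign was not tested.

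Estimates that crossed 0 were mostly small. With the litter block, the size difference became -0.14 for P2RY12, -0.0601 for CSF1R and -0.00537 for ITGAM, and the interaction 0.11 for CX3CR1, 0.18 for P2RY12, 0.000342 for AIF1, 0.24 for TREM2 and 0.0287 for TYROBP. With cohort and sex, size became -0.19 for P2RY12, -0.0523 for CSF1R, -0.0686 for TREM2 and -0.0413 for ITGAM, diet 0.0111 for AIF1, and the interaction 0.0884 for CX3CR1, 0.24 for P2RY12 and 0.19 for TREM2. Without the filter on low counts, size became 0.0481 for CX3CR1, 0.0508 for TMEM119 and 0.0376 for TYROBP. DESeq2 put diet at 0.00879 for CD68. In limma voom, size was 0.00210 for TMEM119 and -3.54e-06 for ITGAM, diet 0.00796 for TMEM119 and the interaction 0.12 for TREM2. In cohort 1 alone, size was -0.11 for P2RY12, -0.57 for CSF1R, 0.0517 for TYROBP and -0.00225 for ITGAM, and the interaction 0.24 for CX3CR1, 0.78 for P2RY12, 0.15 for AIF1 and 0.73 for TMEM119. In cohort 2 alone, size was -0.20 for P2RY12 and -0.0444 for ITGAM, diet 0.0796 for P2RY12, 0.15 for AIF1, 0.14 for TMEM119 and 0.11 for TREM2, and the interaction 0.44 for TREM2 and 0.18 for TYROBP. With plain library totals, the littermate difference of ITGAM was -0.00368 and the diet difference of TMEM119 by litter 0.0101.

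With a litter or 1 of the libraries that stood apart left out, size ranged from -0.28 to 0.33 for CSF1R, -0.18 to 0.33 for TMEM119, -0.0734 to 0.11 for TYROBP, -0.13 to 0.14 for CX3CR1, -0.0425 to 0.20 for ITGAM, -0.0384 to 0.17 for P2RY12 and -0.0928 to 0.00568 for AIF1. Diet ranged from -0.0784 to 0.0535 for AIF1, -0.22 to 0.11 for TMEM119 and -0.24 to 0.62 for CD68. The diet difference kept its sign but not its size for P2RY12, from -0.31 to -0.0370, CSF1R, from -0.60 to -0.10, and CX3CR1, from -0.35 to -0.0102. With either library left out the interaction was between -0.0270 and 0.0712 for CX3CR1 and between -0.11 and 0.0799 for P2RY12.

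Depth limits TREM2, with at most 12 counts, and CD68, with at most 61 counts, most. TREM2 was below the filter when cohort 1 was fitted alone and has no value there. The exact tests of diet and interaction by litter had a smallest attainable p of 0.005, and no gene had an adjusted p under 0.992 in them. For the littermate sign flips it was 0.000488, and their smallest adjusted p over all genes was 0.104.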
